A study of Homo sapiens with 4 samples.

Results

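The genes described here are the human DEAD-box and DEAH-box RNA helicases. They were taken as the listed genes whose symbol begins with DDX or DHX followed by a number. The RIG-I-like receptor genes DDX58 and DHX58 and the interferon-inducible DDX60 and DDX60L were left out. The rule gave 46 genes, 46 of the 12036 genes listed for MS751 and 46 of the 12189 listed for SiHa, and all 46 were in both tables. GENCODE annotates 51 protein-coding genes of this kind. The germ line genes DDX4, DDX25, DDX43 and DDX53 and the Y-linked DDX3Y were listed in neither table, and the lowest listed value in each table was 1.02 CPM, which is a count scaled to the size of its library.

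The libraries came from MS751 and SiHa, both established lines of human cervical squamous cell carcinoma, 2 days after siRNA transfection. The groups were MS751 with siDDX24-1, labelled as DDX24 knockdown, MS751 with siControl, labelled as wild type, SiHa with siDDX24-1, labelled as DDX24 knockdown, and SiHa with siControl, labelled as wild type. Transfections used 2 mL of medium, to which 5 µL of siRNA stock (20 µM) and 5 µL of a lipid carrier were added, and each group held 1 library. All knockdown libraries used 1 siRNA, so loss of DDX24 and any other action of that siRNA cannot be told apart. With 1 library a group, a difference within a line has no replicate check and carries no p-value.

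Total counts were 14664797 in MS751 siDDX24-1, 13160487 in MS751 siControl, 20117442 in SiHa siDDX24-1 and 17707551 in SiHa siControl. Of 11 epithelial markers, 4 were listed in MS751 and 7 in SiHa, with summed levels of 163 CPM (siDDX24-1) and 141 CPM (siControl) in MS751 and of 3126 and 3567 CPM in SiHa. Single epithelial markers had log2 folds (siDDX24-1 over siControl) from -2.18 to 0.58 in MS751 and from -0.79 to 0.51 in SiHa. The squamous and basal markers KRT5, KRT6A, KRT14 and TP63 were listed in neither line, and KRT17, KRT19 and CDH1 were also unlisted in MS751. Of 5 leukocyte markers CD14 alone was listed, in SiHa, and of 4 endothelial markers PECAM1 alone, also in SiHa. Of 5 fibroblast markers 3 were listed in MS751 and 2 in SiHa, with summed levels of 28.2 CPM (siDDX24-1) and 89.7 CPM (siControl) in MS751 and of 8.63 and 18.2 CPM in SiHa. Single fibroblast markers had log2 folds from -1.86 to 0.43 in MS751 and from -1.16 to -0.24 in SiHa. The part of these markers in the helicase values was not tested. In bulk libraries, fewer cells of a kind and less RNA per cell cannot be told apart.

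RNA helicases of this superfamily bind RNA and use ATP to open short duplexes or to strip proteins from RNA. DEAD-box proteins mostly part short duplexes locally, while DEAH-box proteins move along a strand and are often switched on by partners with a G-patch. A dividing cell needs many of them at once, since building ribosomes, splicing, exporting messenger RNA and starting translation each use their own set. DDX24 belongs to the nucleolar set, and its relative in budding yeast, Mak5, acts in assembly of the large ribosomal subunit.

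The family takes its name from motif II of the helicase core, which holds the residues that handle ATP. In-frame codons for Asp-Glu-Ala-Asp were found in the longest GENCODE coding transcript of 25 of the 30 DEAD-box genes. Codons for Asp-Glu-Ala-His were found in 8 of the 15 DHX genes and in DDX11, an iron-sulphur helicase that is set apart here. The exceptions among DDX genes were DDX21, DDX39A, DDX39B, DDX50 and DDX52, and among DHX genes DHX9, DHX30, DHX32, DHX34, DHX36 and DHX57, which had neither run of codons. DHX29 had the Asp-Glu-Ala-Asp codons at codon 1119 and none of the other kind. The search took any in-frame run and did not check that it lies in motif II, so this match in DHX29 may lie elsewhere. The lines that follow show the stretch for the targeted gene and for members with large or unlike folds, with the 4 motif codons in capitals, to show what makes them members and how alike DDX19A and DDX19B are.
DDX24: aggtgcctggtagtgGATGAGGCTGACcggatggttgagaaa
DDX3X: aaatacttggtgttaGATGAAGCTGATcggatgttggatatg
DDX41: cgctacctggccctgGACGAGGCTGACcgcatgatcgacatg
DDX46: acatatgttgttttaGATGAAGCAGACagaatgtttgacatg
DDX19A: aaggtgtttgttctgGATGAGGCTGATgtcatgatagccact
DDX19B: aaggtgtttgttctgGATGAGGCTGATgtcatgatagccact
DHX37: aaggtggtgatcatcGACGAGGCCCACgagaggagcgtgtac
The sequences are from GENCODE release 29 transcripts on GRCh38. The motif codons of DDX24 lie in coding exon sequence at chr14:94060589-94060600 on the minus strand (exon 5 of 9 in its longest coding transcript). Those of DDX3X lie at chrX:41345193-41345204 (plus strand, exon 11 of 19), those of DDX41 at chr5:177513742-177513753 (minus strand, exon 9 of 16) and those of DDX46 at chr5:134790511-134790522 (plus strand, exon 13 of 23). Those of DDX19A and DDX19B lie at chr16:70366201-70366212 and chr16:70329408-70329419 (plus strand, exon 8 of 12 in each), and those of DHX37 at chr12:124971368-124971379 (minus strand, exon 8 of 27).

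DDX24 was lower in both knockdown libraries. In MS751 it had 993 counts (68.0 CPM) with siDDX24-1 and 2072 counts (157 CPM) with siControl, a log2 fold of -1.20 with a 95% counting interval, which covers counting error only, of -1.31 to -1.09. In SiHa it had 575 counts (29.2 CPM) with siDDX24-1 and 3464 counts (192 CPM) with siControl, a log2 fold of -2.71 (95% counting interval -2.84 to -2.59). The remaining level was higher in MS751 than in SiHa. Of its exon bases 7.41% are also in exons of OTUB2 on the opposite strand, and the authors' treatment of bases that lie in exons of both was not stated.

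The other 45 helicases were mostly higher with siDDX24-1 in MS751, and close to their control level in SiHa. In MS751, 40 of the 45 had folds above 0, against 50% of all genes, with a median log2 fold of 0.47 against 0.00 for all genes. In SiHa 30 of the 45 were above 0, against 49.6% of all genes, and 15 below it, against 50.4%, with a median of 0.08 against 0.00. With library totals in place of TMM scaling the SiHa median was 0.02 and 26 of the 45 were above 0, against 42.2% of all genes. In MS751, 6 of the 45 were at least 2-fold higher (3.74% of all genes) and 1 was at least 2-fold lower (8.55% of all genes), which makes 7 in either direction (12.3% of all genes). In SiHa 0 of the 45 were at least 2-fold higher (1.46% of all genes) and 0 were at least 2-fold lower (3.05% of all genes), with 4.51% of all genes past that size in either direction. The counting interval lay above 0 for 34 of the 45 in MS751 (36.4% of all genes) and for 19 in SiHa (30.2% of all genes). It lay below 0 for 3 in MS751 (36.1% of all genes) and 8 in SiHa (30% of all genes).

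As a share of all counts, the 45 genes made up 0.607% with siDDX24-1 and 0.443% with siControl in MS751. In SiHa they made up 0.609% and 0.638%. DDX3X weighed on the SiHa sum. Without it, the 44 remaining genes took 0.558% of the SiHa counts with siDDX24-1 and 0.542% with siControl, and 0.565% and 0.424% of the MS751 counts. The family's share of counts was nearer between the lines in the knockdown libraries than in the control libraries.

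**Figure D1:**
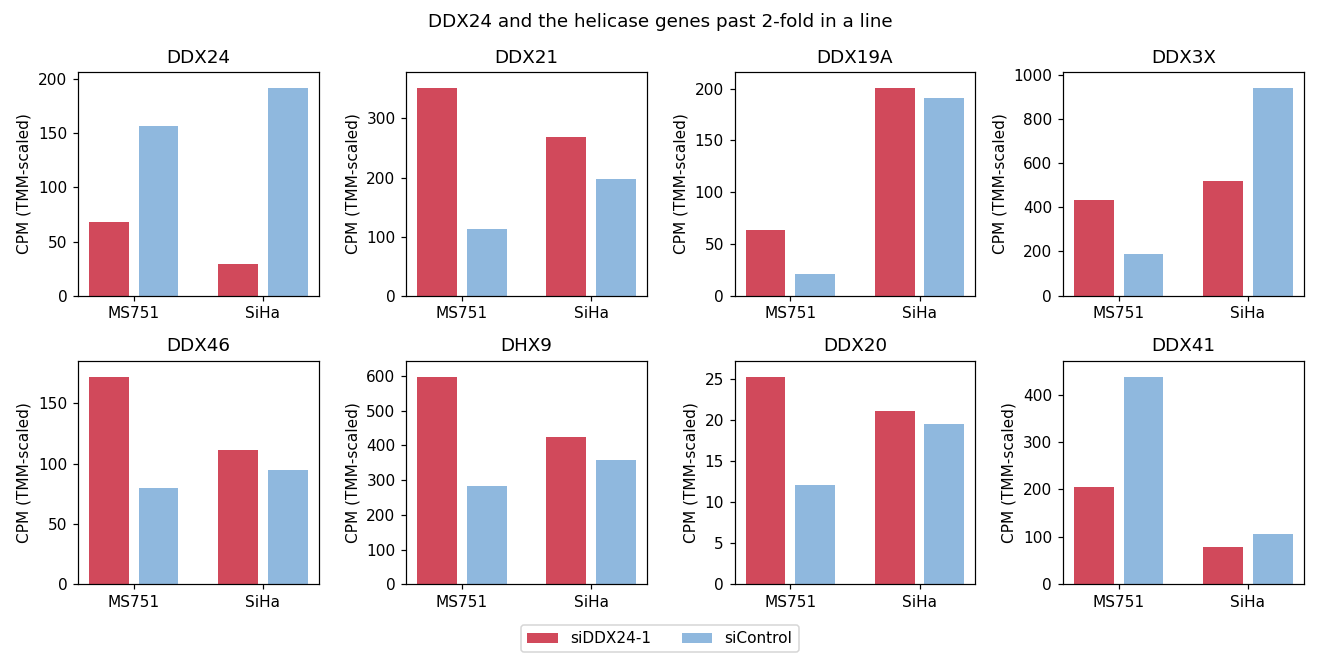
Levels of DDX24 and of the 7 other helicases at least 2-fold higher or lower in a line, in TMM-scaled CPM in each of the 4 libraries (1 library per bar, so no error bar; each panel has its own scale from 0). DDX24 and DDX41 are lower with siDDX24-1 in both lines, and DDX3X is higher in MS751 and lower in SiHa.

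The nucleolar helicases of ribosome assembly had a median log2 fold of 0.48 in MS751 and 0.13 in SiHa over 15 members, DDX24 left out. Of these, 13 of 15 were above 0 in MS751 (86.7%), against 88.9% of the 45 helicases and 50% of all genes. In SiHa 12 of 15 were above 0 (80%), against 66.7% and 49.6%. DDX21, which promotes transcription by RNA polymerase I and processing of pre-rRNA, had the highest mean fold. It had 5120 counts with siDDX24-1 and 1490 with siControl in MS751, and 5291 and 3563 in SiHa. These are 351 and 113 CPM in MS751 and 269 and 197 CPM in SiHa. Its log2 folds were 1.64 (95% counting interval 1.55 to 1.72) and 0.45 (0.39 to 0.51), so DDX21 was higher with siDDX24-1 in each line. DDX50, its neighbour on chromosome 10 and closest relative, did not show this. It had 77.1 CPM with siDDX24-1 and 91.1 CPM with siControl in MS751 (log2 fold -0.24, 95% counting interval -0.36 to -0.12), and 59.2 and 56.5 CPM in SiHa (0.07, -0.06 to 0.19).

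Other members of the nucleolar set were higher in MS751 by less than 2-fold. DDX52, whose yeast relative Rok1 acts in assembly of the small subunit, had 70.5 CPM with siDDX24-1 and 36.2 CPM with siControl (log2 fold 0.96). DDX31, whose yeast relative Dbp7 acts on the large subunit, had 31.5 and 16.4 CPM (0.94). DHX37, whose yeast relative Dhr1 frees the U3 small nucleolar RNA from the precursor, had 54.3 and 28.4 CPM (0.93). In SiHa their folds were 0.26, 0.20 and 0.39, with each counting interval above 0. DDX10, related to yeast Dbp4, was the member with the highest fold in SiHa, at 68.5 CPM with siDDX24-1 and 45.6 CPM with siControl (log2 fold 0.59, 95% counting interval 0.46 to 0.71). In MS751 DDX10 had 100.7 and 71.9 CPM (0.48).

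Of the remaining nucleolar genes, DDX18, DDX27, DDX49, DDX51, DDX54, DDX56 and DHX33 had folds from 0.17 to 0.71 in MS751 and from -0.00 to 0.23 in SiHa. DDX55, related to yeast Spb4, had folds of -0.06 and -0.08. DDX47, which takes part in early pre-rRNA cleavage as yeast Rrp3 does, was higher in MS751 and lower in SiHa. It had 104 CPM with siDDX24-1 and 73.4 CPM with siControl in MS751 (log2 fold 0.50, 95% counting interval 0.38 to 0.62), and 58.3 and 80.8 CPM in SiHa (-0.47, -0.58 to -0.36). Nearly all of the 75-base stretches of its longest coding transcript (99.7%) also occur in transcripts annotated to APOLD1, so its count is uncertain.

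The spliceosomal and snRNP helicases had a median log2 fold of 0.51 in MS751 and 0.09 in SiHa over 10 members. Of these, 9 and 6 were above 0 (90% and 60%). The shares were 88.9% and 66.7% for the 45 helicases and 50% and 49.6% for all genes. DDX46, the relative of yeast Prp5 that acts when the U2 snRNP joins the branch site, had 2504 counts with siDDX24-1 and 1057 with siControl in MS751 (172 and 80.0 CPM, log2 fold 1.10, 95% counting interval 1.00 to 1.21). In SiHa it had 2189 and 1708 counts (111 and 94.4 CPM, 0.24, 0.14 to 0.33). DDX20, the gemin3 subunit of the SMN complex that loads Sm proteins on snRNAs, had 369 and 161 counts in MS751 (25.3 and 12.2 CPM, 1.05, 0.78 to 1.33) and 416 and 354 in SiHa (21.1 and 19.6 CPM, 0.11, -0.10 to 0.32). Both were higher with siDDX24-1 in MS751, and in SiHa the counting interval of DDX20 included 0.

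DDX41 went against the rest of the spliceosomal group in MS751, while in SiHa 4 of the 10 members, DDX41 included, were below 0. This helicase, known as a tumour suppressor of myeloid cells and as a sensor of cytosolic DNA, had 3010 counts with siDDX24-1 and 5771 with siControl in MS751. These are 206 and 437 CPM, a log2 fold of -1.08 (95% counting interval -1.15 to -1.02). In SiHa DDX41 had 1535 and 1918 counts (77.9 and 106 CPM, -0.44, -0.54 to -0.35). It was the only one of the 45 at least 2-fold lower in a line (8.55% of all genes in MS751). Folds were below 0 in both lines for 3 of the 45 (6.67%), DDX41, DDX55 and DHX40, against 31.4% of all genes. Both counting intervals of DDX55 included 0. Of the DHX40 75-base stretches 20.8% also occur in transcripts of other genes, DHX40P1 among them. DDX41 transcripts are GC-rich (58.3%), and with a smooth trend of fold on GC content removed the log2 folds were -0.82 in MS751 and -0.28 in SiHa.

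Of the other helicases of the splicing cycle, DDX23, the relative of yeast Prp28, had 141 CPM with siDDX24-1 and 72.8 CPM with siControl in MS751 (log2 fold 0.95) and 127 and 113 CPM in SiHa (0.18). DHX15, which takes spliceosomes apart as yeast Prp43 does, had 275 and 179 CPM in MS751 (0.61) and 198 and 181 CPM in SiHa (0.13). DHX8, DHX16, DHX35, DHX38 and DDX42 had folds from 0.28 to 0.53 in MS751 and from -0.28 to 0.21 in SiHa. DHX16, related to yeast Prp2, and DHX35 had counting intervals above 0 in MS751 and below 0 in SiHa.

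**Figure D2:**
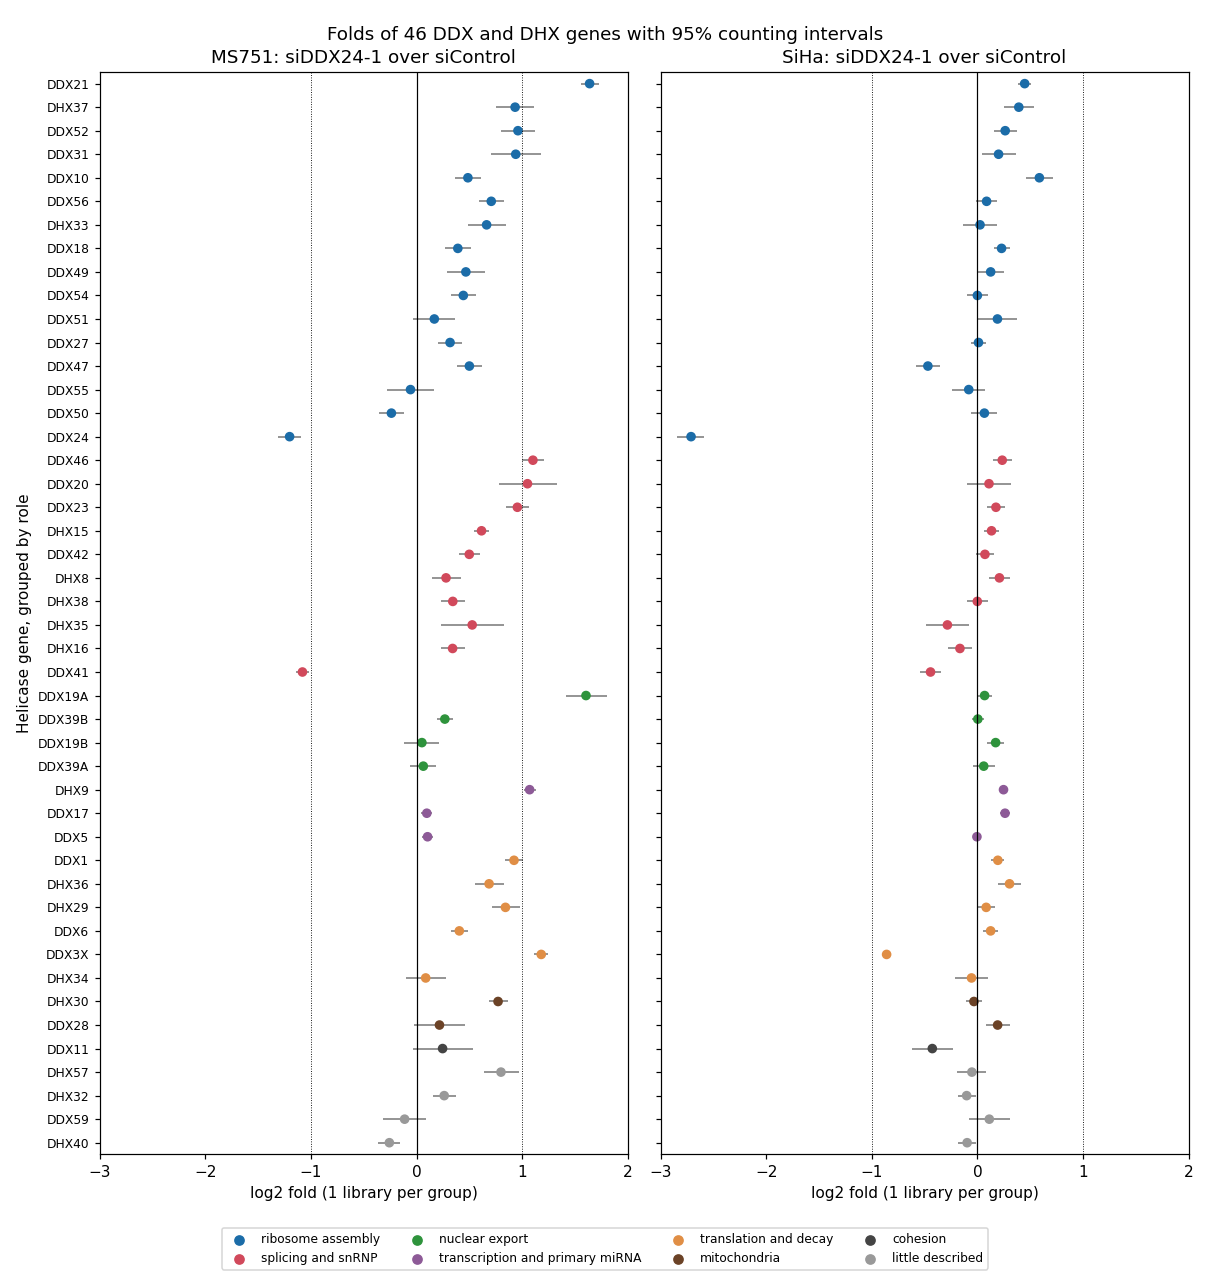
Log2 folds (siDDX24-1 over siControl) of the 46 helicases in MS751 (left) and SiHa (right), grouped by role, with horizontal lines for 95% counting intervals and dotted lines at 2-fold. In MS751 40 of the 45 genes other than DDX24 lie right of 0, and in SiHa 30 do, within a narrower range.

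The 4 helicases of messenger RNA export were above 0 in both lines, as were 28 of the 45 helicases and 33.3% of all genes. DDX19A was the one past 2-fold, in MS751. DDX19A and DDX19B remodel the RNA at the cytoplasmic face of the nuclear pore. DDX19A had 928 counts with siDDX24-1 and 276 with siControl in MS751 (63.6 and 20.9 CPM, log2 fold 1.60, 95% counting interval 1.41 to 1.81), and 3945 and 3456 in SiHa (200.3 and 191 CPM, 0.07, 0.00 to 0.13). DDX19B had 43.9 and 42.4 CPM in MS751 (0.05, -0.12 to 0.21) and 138 and 122 CPM in SiHa (0.17, 0.09 to 0.25). The motif stretches of the pair printed above are identical. Of the 75-base stretches of DDX19A 61.9%, and of those of DDX19B 64.8%, also occur in transcripts of other annotated genes. Among these are each other and ENSG00000260537, which overlaps both on the same strand. A division of reads between the pair and that gene is therefore uncertain. Summed, the pair had 1569 counts with siDDX24-1 and 837 with siControl in MS751, a log2 ratio of 0.76, and 6656 and 5665 counts in SiHa, a log2 ratio of 0.11. Any reads counted to ENSG00000260537 are not in this sum.

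DDX39A and DDX39B bring the export factor ALYREF to messenger RNA within the TREX complex. DDX39A differed little with siDDX24-1 in each line, while DDX39B was higher in MS751 and near its control level in SiHa. DDX39A had 80.4 CPM with siDDX24-1 and 77.0 CPM with siControl in MS751 (log2 fold 0.06, 95% counting interval -0.06 to 0.19), and 81.6 and 78.3 CPM in SiHa (0.06, -0.04 to 0.16). DDX39B had 223 and 185 CPM in MS751 (0.27, 0.19 to 0.34) and 265 CPM in each SiHa library (0.00, -0.05 to 0.06). Of the DDX39B 75-base stretches 94.0% also occur in the readthrough gene ATP6V1G2-DDX39B.

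Among the helicases of transcription and microRNA processing, DHX9 stood apart from DDX5 and DDX17 in MS751, while in SiHa its fold was near that of DDX17. DHX9, which resolves duplexes and R-loops formed during transcription, had 8698 counts with siDDX24-1 and 3753 with siControl in MS751 (596 and 284 CPM, log2 fold 1.07, 95% counting interval 1.01 to 1.12). In SiHa it had 8372 and 6478 counts (425 and 358 CPM, 0.25, 0.20 to 0.29). DDX5 (p68), a coregulator of transcription and a partner of the Drosha complex, had 445 and 414 CPM in MS751 (0.10) and 697 and 699.7 CPM in SiHa (0.00, -0.04 to 0.03). DDX17 (p72), its close relative, had 424 and 397 CPM in MS751 (0.10) and 488 and 407 CPM in SiHa (0.26). DHX36, which unwinds G-quadruplexes and belongs to the same RHA branch as DHX9, had 85.1 and 52.9 CPM in MS751 (0.69) and 76.5 and 61.9 CPM in SiHa (0.30).

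DDX3X had the largest difference between the lines of any of the 45. It unwinds structured leaders of messenger RNAs for translation, and its Y-linked copy DDX3Y was unlisted. In MS751 DDX3X had 6298 counts with siDDX24-1 and 2518 with siControl (431 and 190 CPM, log2 fold 1.18, 95% counting interval 1.11 to 1.25). In SiHa it had 10184 and 16974 counts (517 and 938 CPM, -0.86, -0.90 to -0.82). The fold was 2.04 higher in MS751 than in SiHa on the log2 scale. Between the siControl libraries DDX3X was lower in MS751 than in SiHa by a log2 ratio of -2.30, and between the siDDX24-1 libraries by -0.26.

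The other helicases of translation and decay were above 0 in MS751. DDX1, a subunit of the tRNA ligase complex, had 235 CPM with siDDX24-1 and 124 CPM with siControl in MS751 (log2 fold 0.92, 95% counting interval 0.84 to 1.01) and 233 and 204 CPM in SiHa (0.19, 0.13 to 0.26). DHX29, which helps the small ribosomal subunit scan structured leaders, had folds of 0.84 and 0.08. DDX6, which links repression of translation to decapping, had folds of 0.40 and 0.13. DHX34, an activator of nonsense-mediated decay, had 35.1 and 33.1 CPM in MS751 (0.09, -0.10 to 0.27) and 33.6 and 34.9 CPM in SiHa (-0.06, -0.22 to 0.10).

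Of the helicases of mitochondrial ribosome assembly, DHX30 had 200.3 CPM with siDDX24-1 and 117 CPM with siControl in MS751 (log2 fold 0.77) and 156 and 160 CPM in SiHa (-0.03). DDX28 had 22.7 and 19.5 CPM in MS751 (0.22) and 70.5 and 61.8 CPM in SiHa (0.19). DDX11, needed for cohesion of sister chromatids, had 16.5 and 13.9 CPM in MS751 (0.25, 95% counting interval -0.04 to 0.53) and 20.3 and 27.3 CPM in SiHa (-0.43, -0.62 to -0.24). Of its 75-base stretches 30.8% are shared with DDX12B and DDX12P. Among genes of less described function, DHX57 had folds of 0.80 and -0.05, DHX40 of -0.26 and -0.10, DHX32 of 0.26 and -0.10, and DDX59 of -0.11 and 0.11 (MS751, then SiHa).

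By subfamily, the 29 DEAD-box genes other than DDX24 had a median log2 fold of 0.44 in MS751 and 0.11 in SiHa, with 25 and 23 above 0. The 15 DHX genes had medians of 0.61 and 0.00, with 14 and 7 above 0. Of the 45 helicases 40 were above 0 in MS751 and 30 in SiHa, and of all genes 50% and 49.6%. The DEAD-box folds spread further in MS751, from -1.08 (DDX41) to 1.64 (DDX21), than the DHX folds, from -0.26 (DHX40) to 1.07 (DHX9). Of the 6 genes at least 2-fold higher in MS751, DHX9 was the DHX gene, and 5 were DEAD-box genes. These differences between subfamilies were not tested.

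Helicases without DDX or DHX symbols and the known partners of the family were set beside the 45, and these lists were not tested against them. Of 18 other RNA helicases, among them EIF4A1, SNRNP200 and UPF1, 16 were listed in MS751 with a median log2 fold of 0.31 and 17 in SiHa with a median of 0.04. Their folds ran from -0.39 (EIF4A1) to 0.86 (MTREX, the helicase of the nuclear exosome) in MS751 and from -0.54 (ZNFX1) to 0.41 (EIF4A1) in SiHa. All 45 cofactors, such as the THO subunits, the G-patch proteins and the eIF4G proteins, were listed, with medians of 0.23 and 0.10. Of these cofactors 35 were above 0 in MS751 and 31 in SiHa, against 50% and 49.6% of all genes. Their highest fold in MS751 was 0.94 (UTP14A, which acts with DHX37) and their lowest -0.96 (GPANK1). Of these 2 lists, 0 genes were at least 2-fold higher or lower in either line.

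The 45 helicases were compared between the lines member by member. The fold was higher in MS751 than in SiHa for 37 of 45 members (82.2%), against 53.2% of the 11112 genes in both tables. The median of the difference was 0.43 on the log2 scale, against 0.04 for all genes. Folds were above 0 in both lines for 28 of 45 members (62.2%), against 33.3% of all genes. Across the 45 members the folds in the lines had a Pearson's r of 0.26 and a Spearman's rho of 0.34, and across all 11112 genes 0.33 and 0.38. Without DDX3X, which lowered both values, the remaining 44 members had 0.46 and 0.43. The lines went in opposite directions, with both counting intervals away from 0, for 5 of the 45 members, near the 12.2% of all genes for which this held. All 5 were higher with siDDX24-1 in MS751 and lower in SiHa, as were 5.98% of all genes. Members are not replicates, and the lines share no library.

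**Figure D3:**
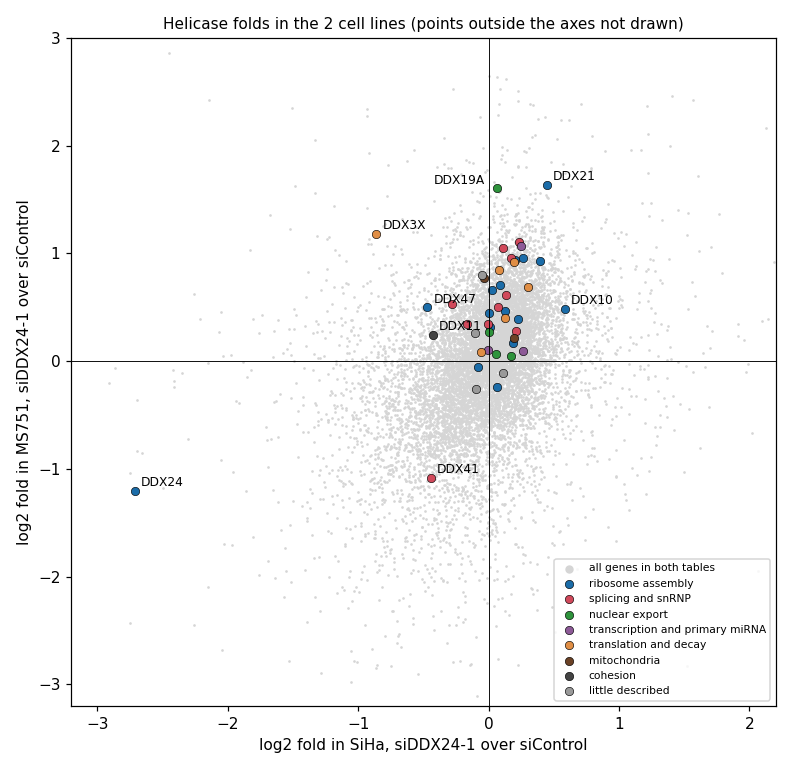
Log2 folds (siDDX24-1 over siControl) of the 46 helicases, coloured by role, in SiHa (horizontal) and MS751 (vertical), over all 11112 genes in both tables in grey. Of the 45 helicases other than DDX24, 28 lie at upper right, above 0 in both lines, and DDX3X has the lowest SiHa fold of them (-0.86) with a MS751 fold of 1.18.

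In the siControl libraries, the helicases tended to be less abundant in MS751 than in SiHa. Their median log2 ratio of MS751 over SiHa was -0.41, against 0.06 for all genes in both tables, and 36 of 45 members (80%) were within 2-fold of each other, against 70.3% of all genes. DDX19A, whose count is uncertain, had the lowest ratio (20.9 CPM in MS751 and 191 CPM in SiHa, -3.19) and DDX41 the highest (437 and 106 CPM, 2.04). The tables of the lines were deposited separately, so these ratios are set across tables. The siControl libraries are also the base of the folds. A low MS751 control value therefore lowers the ratio and raises the MS751 fold, so these are not separate observations. Per kilobase of annotated exon, DDX41 (96.2 CPM per kb), DDX5 (56.1) and DHX9 (50.3) were the most abundant in MS751 siControl. In SiHa siControl these were DDX5 (94.7), DHX9 (63.4) and DDX3X (59.1), and per kilobase of the longest coding transcript DDX3X came before DDX5 (290 and 274). On that transcript basis DDX41 and DDX5 were still the first in MS751, but DDX39B, whose count is uncertain, took the third place in each line (86.9 CPM per kb in MS751 and 124 in SiHa), and DHX9 came after DDX17 (67.0 in MS751 and 84.5 in SiHa).

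Changes common to both lines were tested with edgeR's quasi-likelihood test over the 11112 shared genes, with the cell line as a block. The test called 0 of the 45 helicases, and 5 of all genes (0.045%, with 0.018% higher and 0.027% lower), at an adjusted p under 0.05. At an unadjusted p under 0.05 it held 6 helicases higher (4.34% of all genes) and 1 lower (8.3% of all genes). DESeq2 and limma also called 0 of the 45, with 4 higher and 1 lower in DESeq2 and 7 higher and 1 lower in limma at an unadjusted p under 0.05. DDX21 had the lowest adjusted p of the 45, at 0.309 (log2 fold 1.02, SE 0.30, higher in 2 of 2 lines, edgeR). DDX41 followed with an adjusted p of 0.313 (log2 fold -0.78, SE 0.24, lower in 2 of 2 lines, edgeR).

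DDX24 itself had a log2 fold of -1.97 (SE 0.36) and an adjusted p of 0.171 in edgeR, lower in 2 of 2 lines, so the targeted gene was not called either. DESeq2 gave DDX24 an adjusted p of 3.08e-05, and over all alternatives its adjusted p ran from 3.08e-05 to 0.9997. In libraries simulated for this test, 32% of 50 genes changed 2-fold and 98% of 50 genes changed 4-fold were recovered among 11112 genes. The simulation gave both lines the same levels and folds and gave all genes a shared dispersion. Its shares therefore do not measure how often such changes would be called in the real libraries. With 2 lines the test has 1 residual degree of freedom per gene before sharing across genes. Nothing in the labels tells whether the libraries came from separate cultures, so these p-values cover only differences among the 4 libraries.

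GC content moved with the folds of all genes and was set beside those of the helicases. Spearman's rho of fold on GC content was -0.37 in MS751 and -0.34 in SiHa over all genes, and -0.21 and -0.30 over the 45 helicases, whose median GC content was 48.8% (49.7% and 49.6% for all genes). Among transcripts over 55% GC, 13 helicases had a median log2 fold of 0.34 in MS751, against -0.32 for all 4049 genes of that class, and 0.00 in SiHa against -0.18. Among those under 45% GC, 19 helicases had medians of 0.61 against 0.20 in MS751 and 0.13 against 0.10 in SiHa. With the GC trend removed, the median of the 45 was 0.49 in MS751 and 0.12 in SiHa, with 38 and 32 above 0 (53.4% and 53.2% of all genes).

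Which genes passed 2-fold in MS751 did depend on the GC trend. With it removed, 6 helicases were at least 2-fold higher (3.81% of all genes) and 0 were at least 2-fold lower (6.22% of all genes). Of the 6, 3 (DDX19A, DDX21 and DDX3X) also passed before. DDX23 (1.02), DHX30 (1.11) and DHX37 (1.33) entered, and DDX20 (0.92), DDX46 (0.91) and DHX9 (0.92) dropped below the line.

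**Figure D4:**
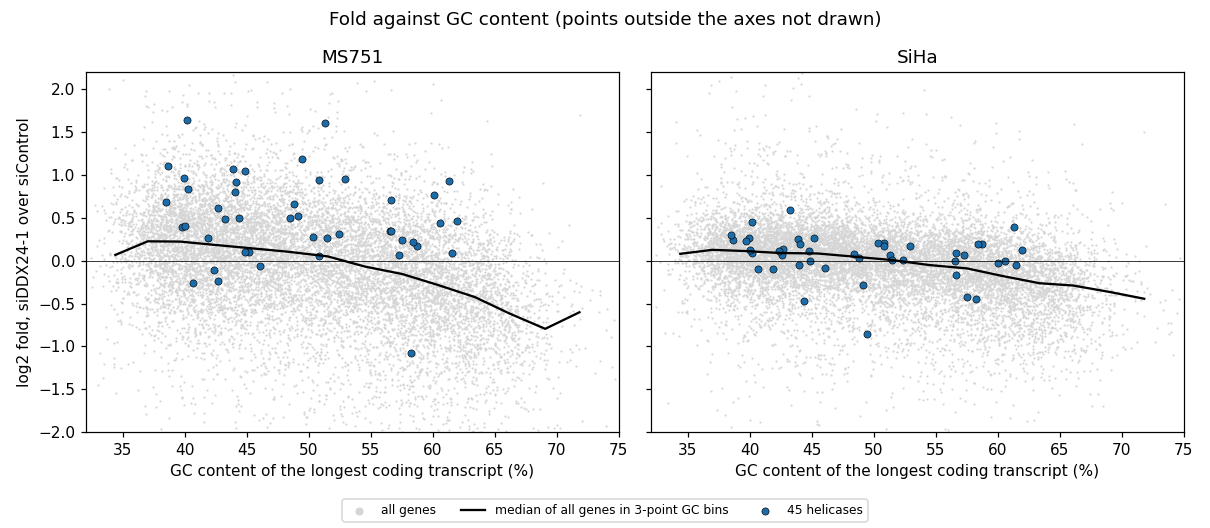
Log2 fold (siDDX24-1 over siControl) against GC content of the longest coding transcript, in percent, for all genes (grey), their median in bins of 3 percentage points (black line) and the 45 helicases other than DDX24 (blue), in MS751 (left) and SiHa (right). Most helicases lie above the line in MS751. With a smooth trend removed, 38 of the 45 were above 0 in MS751 and 32 in SiHa.

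Several nucleolar helicases were higher together, though their median log2 fold in MS751 (0.48) was near that of all 45 helicases (0.47). Promoter windows of the members were searched for CACGTG. This is the E-box bound by MYC with MAX and by related factors, and it reads the same on both strands. RefSeq windows on GRCh38.p14 (250 bases before to 50 after a start site) matched 42 of the 46 genes, and the unmatched DDX18, DDX49, DDX52 and DHX33 are all nucleolar. Of these 42, 9 (21.4%) held the letters in a window, against 13.0% of the 9149 matched genes listed in both tables and 8.77% of all 27305 genes in the RefSeq table. Of the 12 matched nucleolar genes, DDX24 included, 4 did, DDX21, DDX31, DDX54 and DHX37. The 30 bases around the letters are shown for the 3 in which they lie before a listed RefSeq start site, with the E-box in capitals.
DDX21: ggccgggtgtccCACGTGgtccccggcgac
DDX31: cctcgcgcgtccCACGTGgggtcccgggcc
DDX54: ctcagcggaggtCACGTGgtcaccgcacct
They lie at chr10:68956604-68956633 (plus strand, E-box from 31 bases before a listed start site of DDX21), chr9:132669988-132670017 (minus strand, 22 bases before a listed start site of DDX31) and chr12:113185522-113185551 (minus strand, 61 bases before one of DDX54). The stretches of DDX21 and DDX31 lie within these genes as GENCODE annotates them. In DHX37 the letters lie after the listed start site.

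Over all matched helicases other than DDX24, those with the letters had a median log2 fold of 0.44 in MS751 and -0.00 in SiHa. Those without the letters had medians of 0.44 and 0.09. Among matched nucleolar genes other than DDX24, those with the letters had a median log2 fold of 0.93 in MS751 and 0.30 in SiHa. Those without them had medians of 0.32 and 0.07. The unmatched DDX18, DDX49, DHX33 and DDX52 are in neither set and had MS751 folds of 0.39, 0.47, 0.66 and 0.96. Over the other roles the order was the reverse. Medians were 0.10 in MS751 and -0.10 in SiHa for genes with the letters (DDX5, DHX32, DHX34, DHX35 and DHX40). They were 0.50 and 0.11 for those without. These medians rest on few genes, were set up after the folds were known and were not tested. A match describes the sequence and is not a binding site.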

How the data were processed

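The authors deposited raw counts of reads for each Ensembl gene, 1 table per cell line. The submitters' processing notes name HISAT2 2.0.4, StringTie 1.3.4d, fastp 0.23.2 and the build GRCh38.p12 (hg38), without their roles. Which program counted the reads, with which annotation and strand setting, was not stated. Repeated rows with identical values (73 in MS751 and 70 in SiHa) were dropped, and a symbol held by several identifiers was represented by the most abundant (1 dropped in MS751 and 2 in SiHa). All identifiers matched GENCODE release 29 (GRCh38), which supplied positions, exon lengths and GC content.

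Log2 folds were taken between CPM values, scaled by TMM within each line and with a prior count of 1 (edgeR 4.0.16, R 4.3.3), and a minimum mean of 1 CPM was set. Counting intervals are exact conditional intervals at 95% and cover counting error only, since reads copied by PCR are not independent molecules. For changes shared by the lines, edgeR's quasi-likelihood test was fitted to all 4 libraries with cell line as a block (Benjamini-Hochberg adjustment over all genes, SE as the absolute fold divided by the square root of F). DESeq2 1.42.0 and limma 3.58.1 were alternatives. The GC trend was fitted with mgcv 1.9.3. Shared stretches are 75-base runs of a gene's longest coding transcript found in transcripts of other genes. The functions were tested on simulated counts.

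Helicases, roles and lists were chosen with earlier results of these data known. Values are given in full for DDX24, members past 2-fold in a line, the highest and lowest member of each role and close relatives. Members named beyond these were chosen after their values were seen.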

Additional observations from a re-analysis of the deposited data

Results flagged for a closer look

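Of the 45 helicases, 5 had folds in opposite directions in the lines with both 95% counting intervals away from 0, and these differences were not tested. The share was near that of all genes, of which 12.2% met the same condition. The log2 fold in MS751 minus that in SiHa was 2.04 for DDX3X, 0.97 for DDX47, 0.81 for DHX35, 0.51 for DHX16 and 0.36 for DHX32. Each of the 5 was higher with siDDX24-1 in MS751 and lower in SiHa, as were 5.98% of all genes. The DDX47 count is uncertain, since 99.7% of its 75-base stretches also occur in APOLD1 transcripts. Of the DHX32 exon bases 10.4% are also in exons of other genes, BCCIP on the opposite strand among them.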

How the results depend on the processing

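The direction of both DDX24 folds, of both median helicase folds and of the 7 members past 2-fold in MS751 was kept under DESeq2 size factors, library totals, prior counts of 0.5 and 5 and removal of the GC trend, with medians from 0.45 to 0.49 in MS751 and from 0.02 (library totals) to 0.12 in SiHa. The count of helicases at least 2-fold lower in MS751, 1 as reported, became 0 with the GC trend removed, where DDX41 had a log2 fold of -0.82. With that trend removed the MS751 folds of DDX21 (1.45), DDX46 (0.91) and DHX9 (0.92) also left their counting intervals. The common test called 0 of the 45 helicases under each alternative run, and DDX24 passed its threshold with DESeq2 alone (log2 fold -1.99, adjusted p 3.08e-05). Alternatives were also added after the data were seen. Without DDX3X the medians were 0.45 in MS751 and 0.09 in SiHa, and without the 9 members sharing 10% or more of their exon bases or 75-base stretches with another gene they were 0.51 and 0.11. No pairing by replicate was possible within a line because each group holds 1 library and the labels give no replicate numbers. The cell line served as the block, which sets the libraries of a line against each other. Without the block the common test called 0 genes. Over all genes that test called 5, against 97 with DESeq2 and 0 with DESeq2-type scaling in edgeR or a minimum mean of 5 CPM. Depth limits the counting intervals alone, and the spread between cultures was not measured.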
